A study of Sus scrofa with 6 samples.

Results

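Interferon-stimulated genes and genes of antigen processing were followed in the endometrium, the inner lining of the uterus, of 6 Erhualian sows, a Chinese pig breed. All sows were sampled on day 12 of gestation, and 3 were labelled high prolific and 3 low prolific, with 1 library per sow. Neither group carried a treatment or a transgene per the labels, which give no litter sizes and no age. Sows are called high 1 to high 3 and low 1 to low 3 by their label numbers. Values for a group are given in the order of these numbers. The high prolific sows were of parity 5, 8 and 8 and the low prolific sows of parity 7, 7 and 5, parity being the count of litters a sow has had. The genes were chosen by name from a list of 45 symbols. DDX58 and RIGI are 2 names for 1 gene, so the list held 44 genes, and 38 of them were found among the 14262 genes of the table. IRF7, IFIT3, OAS1, XAF1, CXCL11 and B2M matched no row and are not analysed here. Of the 38, 27 were placed among type I response genes, 8 among gamma-type genes (IRF1, GBP1, GBP2, CXCL9, CXCL10, CIITA, TAP1 and TAP2), and 3 in neither (IDO1, PSMB8 and PSMB9).

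Interferons are secreted antiviral and immune signals. Type I interferons bind a receptor of IFNAR1 and IFNAR2, whose kinases JAK1 and TYK2 activate STAT2 and other factors. With IRF9 they switch on genes through the interferon-stimulated response element. Interferon gamma binds IFNGR1 and IFNGR2, acts through JAK1 and JAK2, and is the main inducer of IRF1, CIITA, guanylate-binding proteins and the chemokines CXCL9 to CXCL11. Many genes answer both, and IRF1, TAP1 and the immunoproteasome are among them. In pigs the trophectoderm of the conceptus, the early embryo with its membranes, secretes interferon gamma and interferon delta around implantation, and interferon-stimulated genes are expressed in the endometrium at that time.

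All values are normalized read counts made by the authors, and the depth behind them is unknown. Differences are log2 fold changes, high minus low prolific, taken after adding 1 to each value (the log2(value + 1) scale), so that changes of low genes come out too small. They were tested with limma with Benjamini-Hochberg adjustment over the 14262 genes at a threshold of 0.05. Column sums lay between 22663087 and 24270245. The first principal component, with 43.6% of the variance, set low 2 and low 3 (43.5 and 44.2) apart from the other 4 sows (-40.9 to -1.52). The tissue label was checked against markers: 9 of 10 listed epithelial and 10 of 10 stromal and smooth muscle genes were found. EPCAM, of epithelium, was at 7896 or more and VIM, of stroma, at 16205 or more in each sow. Of 10 genes expressed by the conceptus trophectoderm, 5 were found (CYP11A1, TFAP2C, GATA2, GATA3 and ELF5), and IL1B2, CYP17A1, CYP19A1, CDX2 and PAG2 matched no row. GATA2 was at 3319, 4413 and 4114 in the high and 3376, 2255 and 2168 in the low prolific sows. The others found were low, with a highest value of 142 (CYP11A1 in high 1). Of the 5, 1 lay above 0 (GATA2) and 4 below. Whether the samples held conceptus tissue was not tested. All 14262 genes of the table were at 10 or more in at least 3 libraries, so all 38 members passed that level. In bulk tissue, fewer cells of a type and less RNA per cell cannot be told apart.

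No member differed between the groups past the test. Limma called 0 of 38 members at an adjusted p under 0.05, as it called 0 of 14262 genes (0%), and the members' adjusted p lay between 0.629 and 0.978. At an unadjusted p under 0.05, 1 member was higher in high prolific sows, USP18, against 3.83% of all genes. At that level 0 members were lower, against 4.09%. Without low 1 there were 2 and without low 2 there was 1, and the share of all genes lower in those fits is not given here. The groups overlapped in each of the 38: 0 members had all high prolific sows above all low prolific sows, against 7.18% of genes, and 0 had them all below, against 6.32%. The members nevertheless differed widely between single sows. The highest sow stood above the lowest by a median factor of 3.91 in the 27 type I response genes, against 1.57 over all genes.

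**Figure D1:**
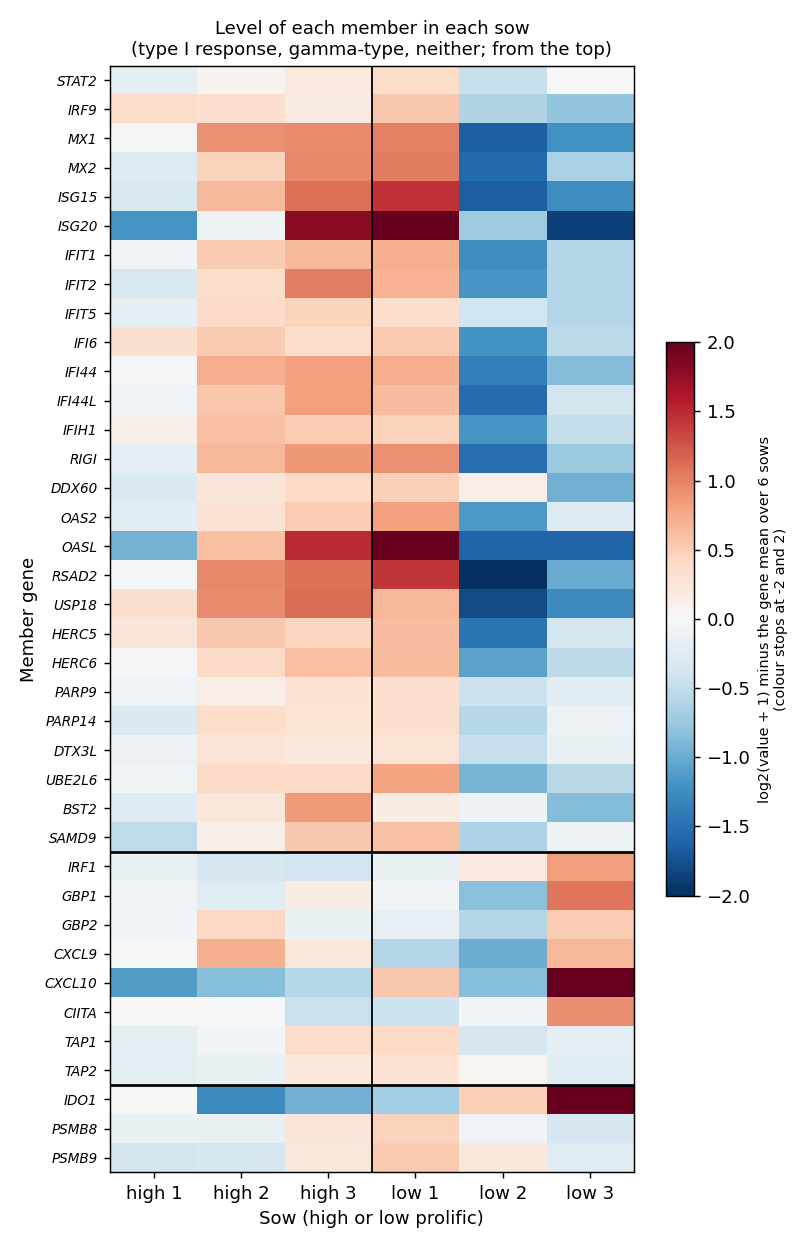
Level of the 38 members (rows, italic) in each of the 6 sows (columns), as the distance of log2(value + 1) from that gene's average, red above and blue below it. Low 2 and low 3 are the 2 lowest sows in 21 of the 27 type I response genes of the upper block, while low 1 is red in all 27.

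The type I response genes split the low prolific group. Low 2 and low 3 were the 2 lowest of the 6 sows in 21 of 27 members (77.8%), against 12.1% of all genes, and high 1 came next in 20 of 27, against 5.03%. Low 1 was the highest sow of all in 19 of 27 members, against 13.3% of genes. These patterns of sows were singled out after the values were seen and are given as descriptions. The median member stood at -1.18 (low 2) and -0.58 (low 3) in log2 units from its own mean over the sows, at -0.11 in high 1, and at 0.39, 0.59 and 0.63 in high 2, high 3 and low 1. Within the low prolific group the median SD of the log2 values was 0.96, and within the high prolific group 0.39. The SD was larger in the low prolific group in 26 of 27 members, and in 63.7% of all genes.

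All 27 fitted differences lay above 0, with a median log2 fold change of 0.70 against -0.0024 over all genes. Leaving out low 2 alone gave a median of 0.30, leaving out high 3 a median of 0.48, and each kept 24 of 27 above 0. Leaving out both low 2 and low 3 left 2 of 27 above 0, USP18 and BST2, and turned the median to -0.34. Leaving out low 1 kept all 27 above 0 and raised the median to 1.23. It put 20 of 27 at an unadjusted p under 0.05 with limma, against 5.35% of all genes. Low 1 was the highest sow in 19 of the 27, so its removal was bound to raise the median. The 27 genes also share the same sows, so the 20 are no separate tests of a group difference. Without low 1 none of the members passed the adjusted test either (lowest adjusted p 0.121 with limma), while 4 of 14262 genes (0.028%) did. Low 1 stood above all high prolific sows in 19 of the 27, so leaving out low 2 and low 3 was likewise bound to turn the sign there. These left-out fits show only that size and, apart from USP18 and BST2, sign of the difference depended on which of the 3 low prolific sows were counted.

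USP18 removes ISG15 from proteins and holds back signalling from the type I receptor. It was at 1406, 2186 and 2463 in the high prolific sows, and at 1797, 328 and 468 in the low prolific ones. Low 1 lay between high 1 and high 2, and the other 2 low prolific sows far below all of them. The means were 2018 ± 548 and 864 ± 811 (SD, n = 3), a log2 fold change of 1.59 ± 0.63 (SE) or 3.01-fold (adjusted p = 0.629 with limma). Its unadjusted p was 0.0422, and the 95% interval of the difference ran from 0.08 to 3.11. Leaving out a single sow moved the difference between 1.10 and 2.32.

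ISG15, the ubiquitin-like protein that USP18 removes, was at 971, 1893 and 2578 in the high and at 3281, 383 and 507 in the low prolific sows. The highest and the lowest library were both low prolific, 8.55-fold apart. UBE2L6, the enzyme that hands ISG15 on, was at 1673, 2321 and 2325 against 3078, 935 and 1210. HERC5 and HERC6 are neighbouring genes of the ligase family that attaches ISG15. HERC5 was at 3072, 3787 and 3493 against 3986, 944 and 2047. HERC6 was at 2810, 3722 and 4298 against 4410, 1353 and 1980. All 4 genes of this conjugation system were thus highest in low 1 and lowest in low 2. Their log2 fold changes lay between 0.46 (UBE2L6) and 0.96 (ISG15), with standard errors of 0.43 to 0.84.

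MX1 and MX2, neighbouring dynamin-like GTPases that block viruses, shared that order of sows. MX1 was at 4124, 7898 and 8067 in the high and 8463, 1358 and 1811 in the low prolific sows. MX2 was at 2098, 3401 and 4859 against 5122, 852 and 1600. Low 1 exceeded low 2 by 6.23-fold in MX1, and the group differences were 1.22 ± 0.70 and 0.77 ± 0.67 (SE). RSAD2, viperin, which makes a chain-terminating nucleotide that stops viral RNA synthesis, had the widest gap between these low prolific sows of the 27. It was at 953, 1886 and 2089 against 2598, 174 and 483, so low 1 stood 14.8-fold above low 2. Its log2 fold change of 1.36 ± 0.95 (SE) became 2.42 without low 1.

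**Figure D2:**
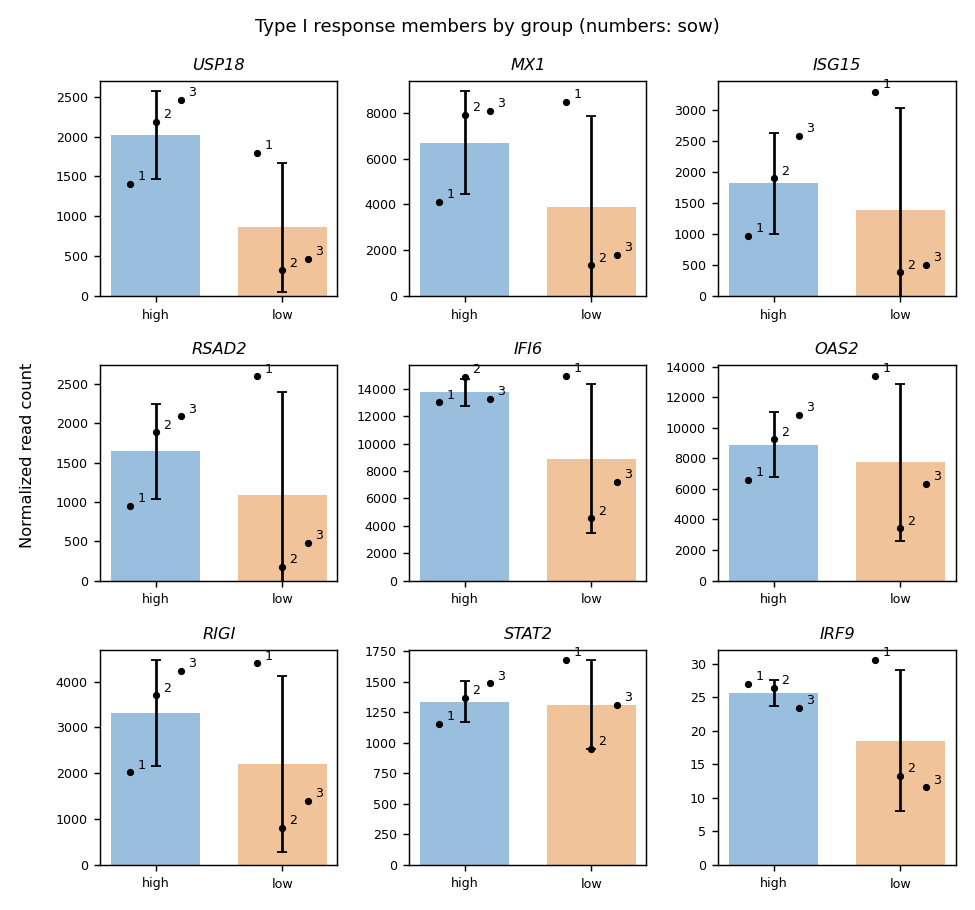
Normalized read counts (linear axes from 0) of 9 type I response genes in high prolific (blue) and low prolific (orange) sows, with bars for the mean of 3 sows, error bars for the SD (cut at 0) and numbered points for single sows. In each panel point 1 of the low prolific group lies above at least 1 high prolific sow (MX1 8463), and points 2 and 3 lie below all of them (MX1 1358 and 1811), except in STAT2, where point 3 (1312) lies above high 1.

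Of the 5 members that sense viral RNA or are related to such sensors, low 2 and low 3 were the 2 lowest sows in 4, and DDX60 was the exception. IFIH1, the sensor MDA5 of long double-stranded RNA, was at 1335, 1903 and 1780 in the high and at 1716, 549 and 899 in the low prolific sows, with its highest value in high 2. RIGI, the sensor of RNA with a triphosphate end, was at 2020, 3696 and 4236 against 4397, 810 and 1394. DDX60, a helicase linked to that sensor, differed, since low 2 (3567) lay well above low 3 (1684) and above high 1 (2682). OAS2 and OASL belong to the oligoadenylate synthetase family, which senses double-stranded RNA, although OASL itself makes no oligoadenylate. OAS2 was at 6598, 9241 and 10835 against 13413, 3418 and 6351. OASL was at 187, 550 and 1021 against 1507, 119 and 119, a spread of 12.6-fold between low 1 and low 2. None of these 5 differed between the groups past the test (adjusted p 0.655 to 0.883 with limma).

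The antiviral and regulatory genes IFI6, IFI44, IFI44L and IFIT1 had log2 fold changes of 0.80, 1.01, 0.86 and 0.73. IFI6, a small protein of the endoplasmic reticulum and mitochondria, was nearly level in the 4 higher sows, at 13017, 14890 and 13290 in the high prolific group and 14969 in low 1, against 4552 in low 2 and 7191 in low 3. IFI44 was at 2515, 4289 and 4554 in the high and 4286, 999.8 and 1413 in the low prolific sows, and its neighbour IFI44L at 3522, 5459 and 6546 against 5736, 1279 and 2870. IFIT1, which binds viral RNA that lacks cap methylation, was at 2180, 3313 and 3619 against 3795, 970 and 1541. IFIT2 and IFIT5, of the same family, differed by 0.70 and 0.43. BST2, tetherin, which holds budding viruses at the cell surface, was at 883, 1233 and 1911 against 1168, 977 and 578, so that low 2 was not among the 2 lowest sows.

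Of the 27 type I response genes, the transcription factor STAT2 and the genes PARP9, PARP14 and DTX3L had the smallest spread between sows. PARP9 and the ubiquitin ligase DTX3L work as a pair, and PARP14 is an ADP-ribosyl transferase. STAT2 was at 1154, 1368 and 1486 in the high and at 1679, 948 and 1312 in the low prolific sows, a log2 fold change of 0.06 ± 0.22 (SE) with a 95% interval from -0.48 to 0.59. The highest sow exceeded the lowest by 1.77-fold in STAT2, 1.70-fold in PARP9, 1.93-fold in PARP14 and 1.67-fold in DTX3L, with log2 fold changes of 0.22 to 0.24 in the last 3. IRF9, the DNA-binding partner of STAT2, was low throughout, at 27.0, 26.5 and 23.4 against 30.6, 13.3 and 11.6. Low 2 and low 3 again stood below the other sows, with a log2 fold change of 0.58 ± 0.42 (SE). ISG20, a nuclease of viral RNA, was also low and the most scattered of the 27. It was at 19.9, 42.9 and 164 against 195, 27.8 and 11.9, with high 1 below low 2. SAMD9, an antiviral factor, was at 1201, 1846 and 2476 against 2563, 1107 and 1587, and low 3 lay above high 1.

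**Figure D3:**
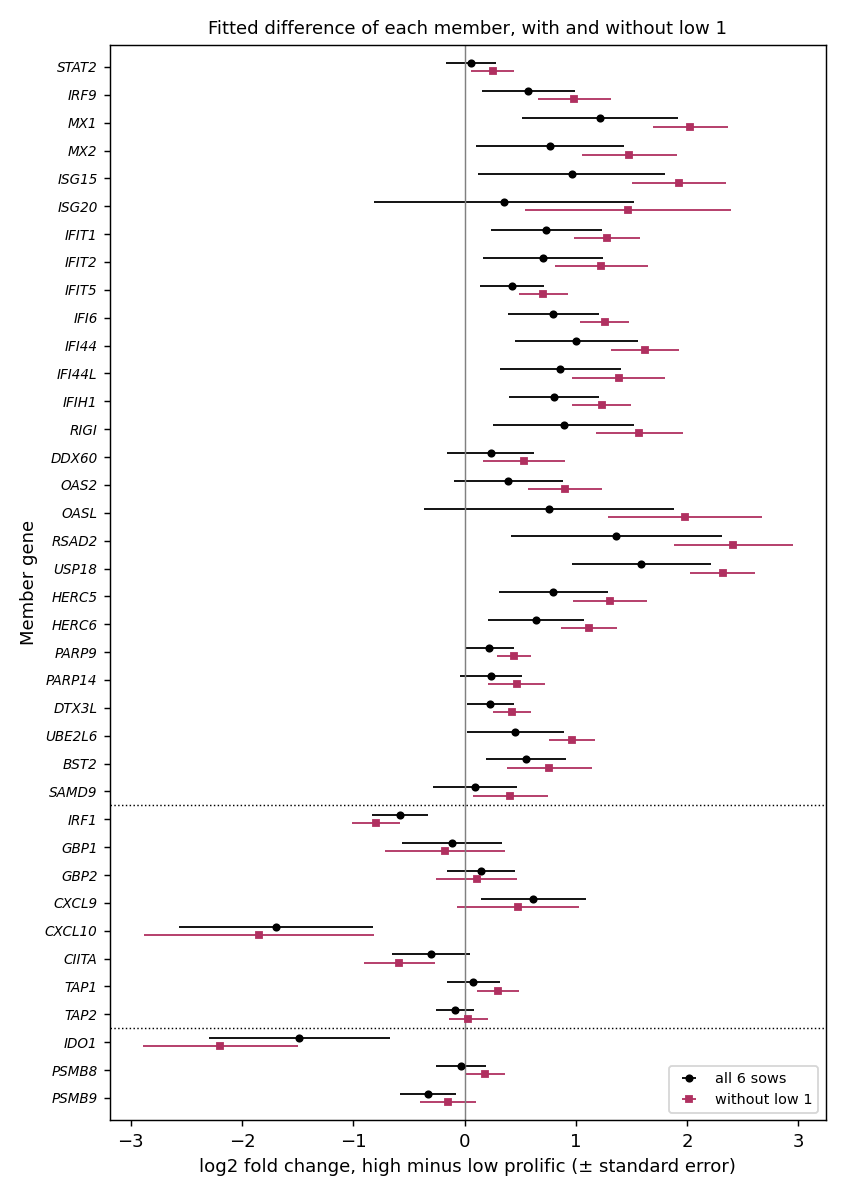
Log2 fold change (high minus low prolific, horizontal axis) with standard error of each member, for all 6 sows (black circles) and without low 1 (red squares), with dotted lines between type I response, gamma-type and other genes from the top. All 27 type I response genes lie right of 0 in both fits (median 0.70 and 1.23), while CXCL10 and IDO1 lie left in both.

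The gamma-type genes did not share that order of sows. Low 2 and low 3 were the 2 lowest sows in 1 of 8, TAP1. Low 3 was the highest sow in 5 of 8, against 22% of all genes and 0 of 27 type I response genes. The differences lay above 0 in 3 and below 0 in 5, with a median of -0.10. Without low 3 they lay above 0 in 5 and below in 3 (median 0.045), and without low 2 above in 1 and below in 7 (median -0.25). The difference between the type I response and gamma-type genes was itself not tested, since the genes of each set share the same 6 libraries.

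CXCL10, a chemokine that draws activated T and NK cells, was at 155, 187 and 226 in the high and at 489, 187 and 2433 in the low prolific sows. Low 3 stood 12.9-fold above the median of the other 5 sows, and low 2 lay level with high 2. The log2 fold change was -1.69 ± 0.87 (SE, adjusted p = 0.656 with limma), and leaving out single sows moved it between -2.54 and -0.69. CXCL9, a chemokine for the same receptor whose gene lies close to CXCL10, did not follow it. It was low, at 50.0, 82.3 and 57.6 against 32.8, 24.4 and 79.0, with its highest value in high 2.

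IRF1, the transcription factor at the head of the gamma response, was at 1061, 917 and 899 in the high and 1052, 1333 and 2076 in the low prolific sows. Low 3 stood 1.97-fold above the median of the others, and low 1 lay just under high 1. The log2 fold change of -0.58 ± 0.25 (SE) had the smallest unadjusted p of the gamma-type genes, 0.0569, with a 95% interval from -1.18 to 0.02. CIITA, the master switch of class II presentation, was at 627, 631 and 465 against 470, 609 and 1198, with low 3 again 1.97-fold above the median of the others. GBP1 and GBP2 are neighbouring GTPases that attack vacuoles of intracellular microbes. GBP1 was at 1338, 1197 and 1555 against 1344, 793 and 2947, and GBP2 at 472, 657 and 447 against 441, 328 and 701. In both, low 3 was highest and low 2 lowest, and the low prolific sows spanned the high prolific ones. IDO1, which breaks down tryptophan and restrains T cells, was at 37.3, 14.8 and 18.5 against 22.8, 51.9 and 205. Low 3 stood 8.65-fold above the median of the other sows there too.

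**Figure D4:**
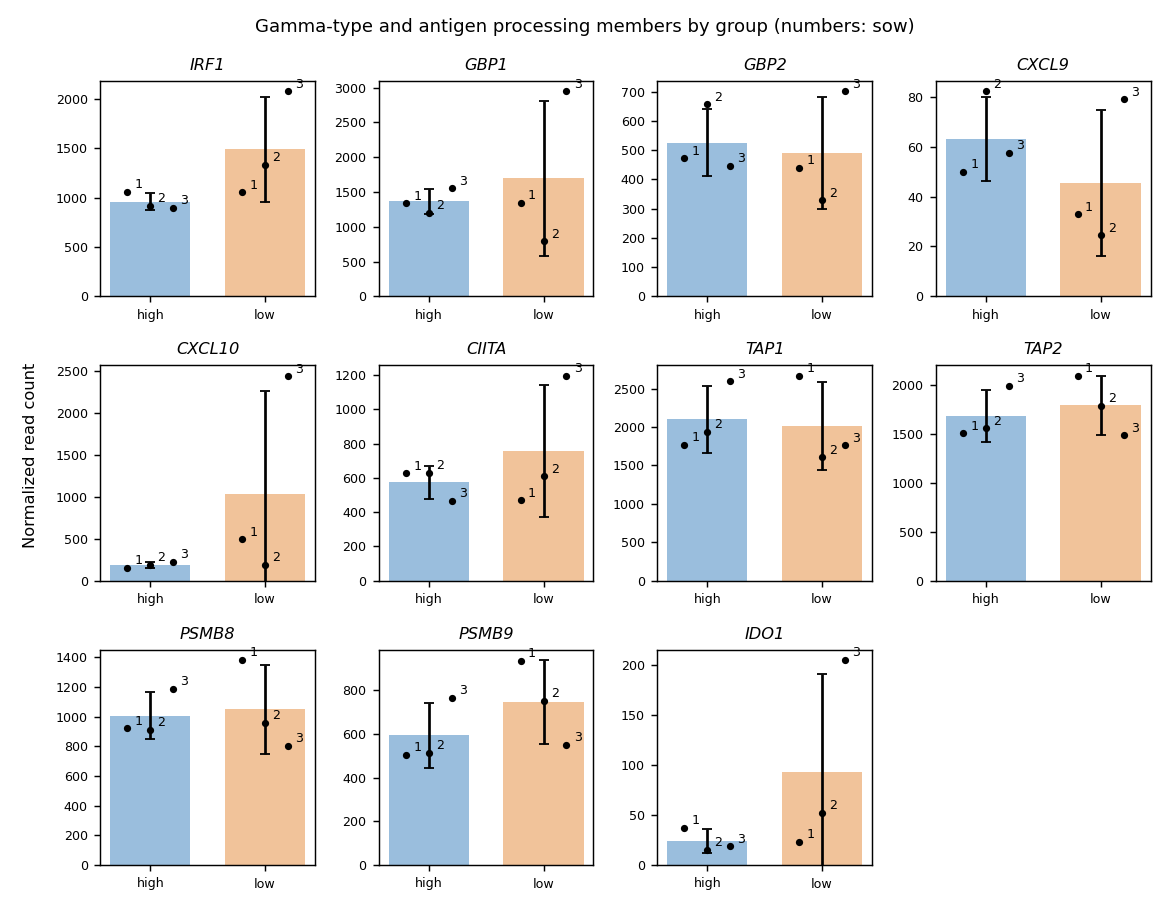
Normalized read counts (linear axes from 0) of the 8 gamma-type genes and of PSMB8, PSMB9 and IDO1 in high prolific (blue) and low prolific (orange) sows, with bars for the mean of 3 sows, error bars for the SD (cut at 0) and numbered points for single sows. Point 3 of the low prolific group is the highest in IRF1, GBP1, GBP2, CXCL10, CIITA and IDO1 (CXCL10 2433), and point 1 in TAP1, TAP2, PSMB8 and PSMB9 (TAP1 2670).

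The genes that supply peptides to class I molecules did not share the high values of low 3. TAP1 and TAP2 are the subunits of the peptide transporter, and PSMB8 and PSMB9 are catalytic subunits of the immunoproteasome. The 4 genes lie side by side in the order TAP2, PSMB8, TAP1 and PSMB9 in the RefSeq annotation of assembly Sscrofa11.1. TAP1 was at 1769, 1936 and 2594 in the high and 2670, 1603 and 1761 in the low prolific sows. TAP2 was at 1509, 1558 and 1995 against 2100, 1792 and 1489. PSMB8 was at 921, 910 and 1189 against 1383, 960 and 801, and PSMB9 at 503, 512 and 765 against 937, 753 and 551. In all 4, low 1 was the highest sow and high 3 the next, and low 3, highest in CXCL10 and IRF1, lay among the lower sows. The top of that order was not particular to them. Low 1 was also highest in 19 of 27 type I response genes, with high 3 next in MX1 and ISG15 among others, and high 2 next in IFI6 and HERC5. Their log2 fold changes were 0.08, -0.09, -0.03 and -0.33. The 95% intervals ran from -0.49 to 0.65 for TAP1, from -0.50 to 0.33 for TAP2, from -0.57 to 0.51 for PSMB8 and from -0.93 to 0.28 for PSMB9.

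Other genes of the class I pathway, 11 of 19 listed, lay higher in high prolific sows in 3 and lower in 8 (median -0.16), with 0 at an unadjusted p under 0.05, against 3.83% of all genes higher and 4.09% lower at that level. PSMB10, the third catalytic subunit of the immunoproteasome, had a log2 fold change of -0.27, PDIA3, of the peptide-loading complex, -0.31, and NLRC5, the switch of class I genes, -0.25. NLRC5 was at 413, 488 and 461 in the high and 539, 374 and 781 in the low prolific sows, with low 3 highest. Of 13 class II genes, 8 were found, 4 above and 4 below 0. RFX5, which binds class II promoters, was at 756, 766 and 797 against 987, 949 and 901, a log2 fold change of -0.29 ± 0.09 (SE, adjusted p = 0.619 with limma). CD74, the invariant chain, was at 8237, 7449 and 4896 against 5408, 4941 and 9377, with low 3 highest and the groups overlapping. SLA-1, a class I heavy chain, and SLA-DRA, a class II alpha chain, matched no row.

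The receptors upstream of these genes had another order of sows. IFNAR1 was at 4102, 2930 and 4663 in the high and 5219, 11484 and 8493 in the low prolific sows. IFNAR2 was at 2958, 2641 and 3182 against 3813, 10836 and 5578, and IFNGR2 at 1224, 968 and 1778 against 1608, 4360 and 3141. All 3 were highest in low 2 and next in low 3, the sows in which most type I response genes were lowest. IFNAR1 and IFNGR2 are neighbours in the RefSeq annotation, with IL10RB, which matched no row, between IFNAR1 and IFNAR2. Their log2 fold changes were -1.06 ± 0.32, -1.07 ± 0.36 and -1.13 ± 0.40 (SE, adjusted p = 0.619 for each with limma). IFNGR1 was at 738, 803 and 797 against 1124, 839 and 991, a difference of -0.33 ± 0.13.

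Of the 10 receptor and JAK-STAT genes found, 8 were below 0 and 2 above, and 4 (IFNAR1, IFNAR2, IFNGR1 and IFNGR2) were lower in high prolific sows at an unadjusted p under 0.05, against 4.09% of all genes. Leaving out high 2 left 0 of these 4, and leaving out high 1 left 2. The share of all genes higher in high prolific sows at that level was 3.83% with all sows, 1.51% without high 2 and 3.67% without high 1. The share of all genes lower in those fits is not given here. Without both low 2 and low 3 the median log2 fold change of the 10 genes was -0.36, against -0.37 with all sows. That median does not stand for the single receptor chains. Low 1 lay well below low 2 and low 3 in IFNAR1 (5219), IFNAR2 (3813) and IFNGR2 (1608), so their differences were smaller in that setting. In IFNGR1 low 1 (1124) was the highest sow, so its difference was larger. JAK1, JAK2 and TYK2 had log2 fold changes of -0.10, 0.18 and 0.14. STAT4, listed with the other interferon-stimulated genes and not among these 10, reached 343 in low 2 while the rest of the sows had 56.2 to 88.0.

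**Figure D5:**
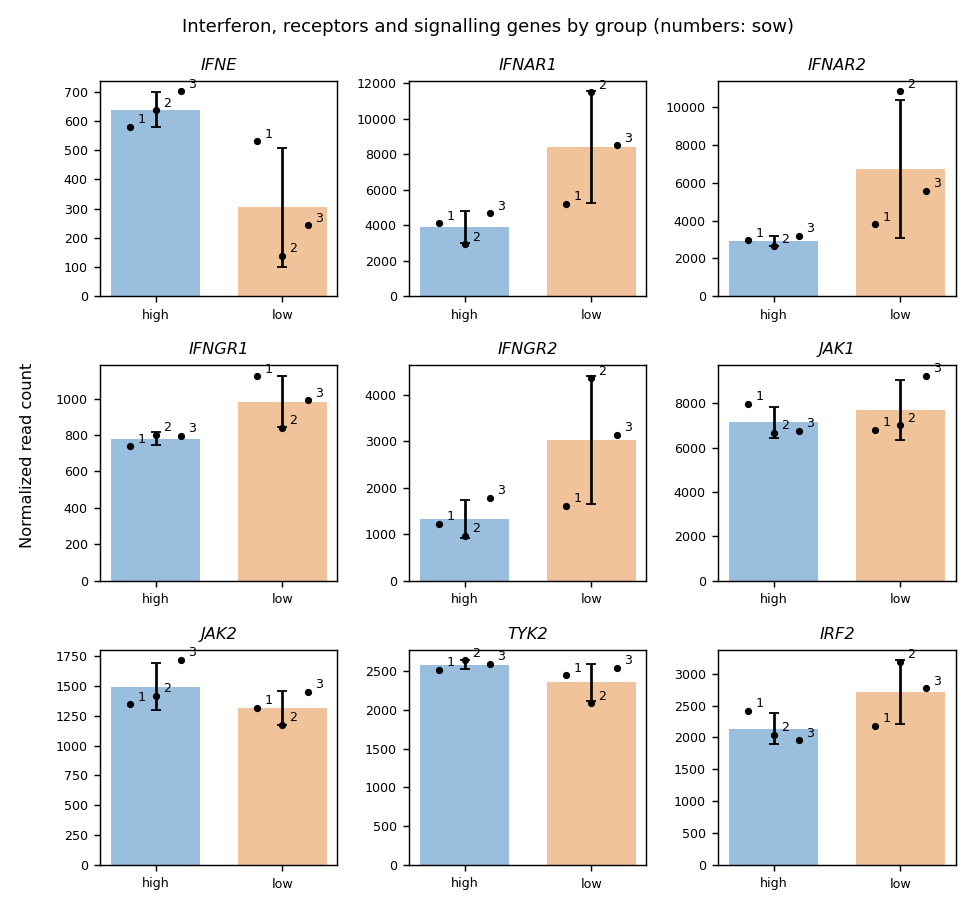
Normalized read counts (linear axes from 0) of interferon epsilon, receptor chains, kinases and IRF2 in high prolific (blue) and low prolific (orange) sows, with bars for the mean of 3 sows, error bars for the SD (cut at 0) and numbered points for single sows. Points 2 and 3 of the low prolific group are the lowest in IFNE (139 and 242) and the highest in IFNAR1 (11484 and 8493).

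Of 40 interferon symbols listed, 3 matched, and IFNG was not among them. IFNE, interferon epsilon, a type I interferon that epithelium of the reproductive tract makes without infection, was at 579, 636 and 701 in the high and at 531, 139 and 242 in the low prolific sows. Low 2 and low 3 were the 2 lowest sows, as in the type I response genes, and the groups did not overlap, as in 7.18% of genes, with 531 in low 1 just below 579 in high 1. The log2 fold change was 1.28 ± 0.46 (SE, adjusted p = 0.619 with limma), 1.79 without low 1 and 0.26 with low 1 as the single low prolific sow. IFN-ALPHA-15 was at 69.3 to 134 in high and 60.6 to 112 in low prolific sows, and IFN-DELTA-1 at 49.4 to 52.7 against 36.4 to 66.8. Some type I interferon genes, such as those of the alpha family, are near-identical copies, so reads may have been split between such copies. IRF2, which competes with IRF1 and limits interferon-stimulated genes, was at 2416, 2041 and 1954 against 2186, 3186 and 2773. It was highest in low 2 and low 3, with a log2 fold change of -0.33 ± 0.17. SOCS1, an inhibitor of JAK kinases, was at 303 to 377 against 245 to 474, and the 11 brakes on the pathway lay above 0 in 6 and below in 5.

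Interferon-stimulated genes outside the members followed the order of sows in part. Low 2 and low 3 were the 2 lowest sows in 11 of 22 such genes and in 4 of 16 sensors and adaptors, against 12.1% of all genes. DHX58, a regulator of RIGI and IFIH1, was at 778, 1202 and 1094 in the high and 1195, 205 and 321 in the low prolific sows. EIF2AK2, the kinase PKR that stops translation, was at 3034, 4550 and 5487 against 4400, 1841 and 1990. CMPK2, the direct neighbour of RSAD2 and named here after its values were seen, was at 1057, 1831 and 2038 against 1946, 368 and 587. ISG12(A) did not follow, at 45182, 55157 and 33846 against 65212, 56414 and 55117. Nor did IFI30, a reductase of antigen processing, at 690 to 855 in high and at 720, 1487 and 1362 in low prolific sows. Of the 22 genes 12 lay above and 10 below 0, with a median of 0.06, and 1, N4BP1, was lower at an unadjusted p under 0.05, against 4.09% of all genes.

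Markers of other cells were read beside these patterns. The summed level of 20 T and NK cell rows was 2384 to 2884 in high and 2101 to 2550 in low prolific sows, and that of 11 macrophage markers 8451 to 10980 and 8282 to 11925. CD3E was at 82.2, 173 and 137 against 110, 72.7 and 87.6, and NKG7 at 86.9 to 138 against 93.5 to 117. Low 3, highest in CXCL10, had the largest macrophage sum, and low 2 the smallest. Of 10 neutrophil markers, 4 were found. S100A8 reached 5414 and 10857 in low 2 and low 3, with a highest value elsewhere of 713. S100A12 reached 7533 and 5283 there and 582 elsewhere. The other neutrophil markers had other orders: MMP8 was at 4278, 168 and 8703 against 11244, 10304 and 1706, and CSF3R at 385, 102 and 152 against 168, 44.3 and 199. The summed level of the 9 epithelial genes was 66472 to 71919 in high prolific sows against 77955, 64402 and 51799. In 5 of these 9, low 2 and low 3 were the 2 lowest sows (KRT7, KRT8, KRT18, ESRP1 and FOXA2), against 12.1% of all genes. KRT7, named after its values were seen, was at 2926, 6709 and 5019 against 6150, 1566 and 1749. Its lowest sows were low 2, low 3 and high 1, as in 20 of 27 type I response genes, but its highest was high 2. EPCAM (11765, 8789 and 8249 against 8857, 11277 and 7896) had another order. CDH1 and ELF3 went the other way. CDH1 was at 18895, 15318 and 17948 against 22226, 26177 and 19927, with all high prolific sows below all low prolific sows, as in 6.32% of genes. ELF3 was at 1666, 971 and 887 against 1410, 2031 and 1814, highest in low 2 and next in low 3. The 10 stromal and smooth muscle markers summed to 329802 to 432406 in high prolific sows against 392944, 532583 and 502142, highest in low 2 and low 3. COL1A1 and COL1A2 made up most of each sum (255612 and 172145 in low 2). PDGFRA and MYH11, named after their values were seen, had other orders. PDGFRA was at 7661, 5921 and 5214 against 4922, 4970 and 8604, and MYH11 at 13483, 21899 and 11627 against 16882, 13364 and 7666. The highest sow was low 3 in 5 of the 10 markers, low 2 in 4 and high 2 in 1. Of the 10 markers, 8 lay below 0, and 4 had all high prolific sows below all low prolific sows, against 6.32% of genes. The 5 endothelial markers summed to 9190 to 13751 in high prolific sows against 11579, 15507 and 20937. The part of cell composition in the members' values was not tested.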

How the data were processed

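The authors deposited 1 table of normalized read counts, a signal that is never negative, with fractional values and unequal column sums. The submitters' processing notes name Subread 1.6, featureCounts and edgeR. What each did, the kind of normalization, the genome build, the annotation and the strand setting are not given in the sources used here. Coordinates are left out for that reason. Of the values under 20, between 40.6% (high 2) and 100% (high 3) per sow were within 0.1 of a multiple of 1 step. The reads could thus not be recovered, and a count test was not used. Counting error cannot be given, since the depth is unknown. The lowest mean of a gene over the sows was 17.6.

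Ensembl identifiers were matched to symbols for 11977 of 14262 genes, and neighbours came from the RefSeq gene table of assembly Sscrofa11.1, which held 36 of the 38 members. Reads shared by near-identical copies (MX, IFIT, OAS and GBP families) or by overlapping genes are uncertain, and values are not compared between genes. No promoter or protein sequence was used here.

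Tests were two-sided and used limma 3.58.1 (R 4.3.3) on log2 of the value plus 1, with trended, robust variance moderation. The procedure was also run on simulated data. The outcome is not given here, so nothing is said of its power for changes of the members' size. Alternatives were a pseudocount of 10, a mean of at least 200, other scalings, other moderation, library weights, parity, the replicate number and left-out sows. Whether sows share a herd or day is not given, and p-values measure the spread between these sows.

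The members and lists were chosen with earlier results of these data known. All members found may be named, with values in every sow for the gamma-type genes, IDO1, PSMB8, PSMB9, STAT2, IRF9, MX1, MX2, ISG15, RSAD2, USP18 and the 8 other type I response genes of smallest p. Other lists gave at most 4 genes by p beside those fixed by name, and DDX60, OASL, ISG20 and others shown in full were added after their values were seen. Values of 1 gene of the signalling list are not reported here.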

Additional observations from a re-analysis of the deposited data

How the results depend on the processing

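The count of members past the adjusted threshold was 0 under all 16 alternatives, as was that of all genes except without low 1 and without low 2, so it ranged from 0 to 4 over the left-out sows. The count of members higher at an unadjusted p under 0.05 with limma was 1, against 3.83% of all genes. It ranged from 0 to 20 over the single left-out sows, where the share of all genes ran from 1.51% (without high 2) to 5.35% (without low 1). It was 0 with no variance trend (3.73% of all genes), with parity as a covariate (3.56%) and with the replicate block (1.94%). The count of members lower at that level was 0, against 4.09% of all genes. It ranged from 0 to 2 over the single left-out sows and was 1 with library weights, and the share of all genes lower in those fits is not given here. The labels do not say whether same-numbered sows share more than a number. Their deviations from the group means were correlated at -0.38, -0.16 and -0.36. Deviations within a group sum to 0, so these values cannot decide whether the numbers stand for a shared batch. The replicate block left 0 of 14262 genes past the threshold. Without both low 2 and low 3, where low 1 alone is assumed to vary like the high prolific sows, the median over all members went from 0.44 to -0.32 and that of the type I response genes to -0.34.

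In that setting these log2 fold changes turned: STAT2 -0.34, IRF9 -0.25, MX1 -0.40, MX2 -0.65, ISG15 -0.97, ISG20 -1.88, IFIT1 -0.36, IFIT2 -0.35, IFIT5 -0.14, IFI6 -0.13, IFI44 -0.23, IFI44L -0.19, IFIH1 -0.053, RIGI -0.48, DDX60 -0.36, OAS2 -0.62, OASL -1.67, RSAD2 -0.74, HERC5 -0.21, HERC6 -0.31, PARP9 -0.22, PARP14 -0.22, DTX3L -0.15, UBE2L6 -0.56, SAMD9 -0.54, GBP1 0.012, CIITA 0.27 and TAP1 -0.37. With parity ISG20 (-0.22), SAMD9 (-0.042) and GBP1 (0.039) turned, and with library weights GBP1 (0.087). Over single left-out sows the sign was not fixed in PSMB8 (-0.21 to 0.19), GBP2 (-0.10 to 0.44), STAT2 (-0.16 to 0.25), ISG20 (-0.49 to 1.47), SAMD9 (-0.19 to 0.41), TAP1 (-0.084 to 0.30), TAP2 (-0.21 to 0.035), OAS2 (-0.084 to 0.90), DDX60 (-0.19 to 0.53), GBP1 (-0.55 to 0.39) and CIITA (-0.59 to 0.088). The cause of these turns was not tested. The planned search of promoters was not run. Depth is unknown, and 3 sows a group limit the precision, with a median standard error of 0.49 for the type I response genes against 0.19 over all genes.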
